A study of Homo sapiens with 10 samples.

Results

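The early response to siGGGGGC (siMxy in the labels) was examined in HeyA8, an established line of human ovarian cancer cells, 24 h after transfection with this duplex or with the non-targeting duplex siNT1. Each duplex was given at 10 nM. The comparison rests on 4 of the 10 RNA-seq libraries of the study, siGGGGGC replicates 1 and 2 and siNT1 replicates 1 and 2, all taken at 24 h and chosen by their titles. The other 6 libraries were siNT1, siGGGGGC and siGGCAGU at 48 h, with 2 libraries each. siGGGGGC differs from siNT1 in the 6mer seed, positions 2 to 7 of the guide strand, which is GGGGGC in one and UAGUCG in the other. The passenger strand of both carried 2′-O-methyl groups, which keep it out of the silencing complex. Both groups are a single cell line after a lipid transfection, there were no untransfected cells among the libraries analysed here, and the duplicates were wells of a transfection. P-values therefore measure the spread between wells and libraries, taken over all 10 libraries, those at 48 h among them. Of 58395 genes in the count files, 16905 had enough counts to be tested.

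A guide strand loaded into an Argonaute protein acts as a microRNA does. Its seed pairs with a short complementary stretch in the 3′ UTR of a messenger RNA, and the GW182 (TNRC6) proteins then bring deadenylation, decapping and decay, so that the targeted mRNA becomes less abundant. Pairing at the base next to the seed, or an A facing the first guide position, strengthens a site. A duplex without a full-length target can in this way lower many mRNAs, and where these encode proteins that cells need to survive, the form of cell death called death induced by survival gene elimination follows.

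The complement of the GGGGGC seed is GCCCCC. A site with only these bases is a 6mer, TGCCCCC is a 7mer-m8, GCCCCCA is a 7mer-A1 and TGCCCCCA is an 8mer. The stretches below are sites in the 3′ UTRs of genes described in the following paragraphs, each 30 bases of hg38 on the strand of the gene, with the site in capitals. They are examples, a single site for each of some of the genes with large falls that held a match. Other sites of these genes, and sites of other genes, are not shown.
SIRT2, 8mer, chr19:38878858-38878887, minus strand: tcatctctaacTGCCCCCAcggggccaggg
EIF5A, 8mer, chr17:7312354-7312383, plus strand: tgggagggcccTGCCCCCAtgggctttacc
EIF5AL1, 8mer, chr10:79513652-79513681, plus strand: tgggaagggccTGCCCCCAtgggctttacc
PES1, 8mer, chr22:30576737-30576766, minus strand: cccctacctacTGCCCCCAttcatcctggc
CENPB, 8mer, chr20:3784648-3784677, minus strand: ggacctagctgTGCCCCCAacctagattgg
SHISA5, 8mer, chr3:48468352-48468381, minus strand: cacagcctagcTGCCCCCAgggagctctgc
RHOC, 7mer-m8, chr1:112701293-112701322, minus strand: cctggggatctTGCCCCCtttgaccttccc
IMPDH1, 7mer-m8, chr7:128392516-128392545, minus strand: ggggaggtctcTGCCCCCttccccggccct
HMGA1, 7mer-m8, chr6:34245791-34245820, plus strand: ctgctcctcccTGCCCCCcaaggttctggt
TGM2, 7mer-A1, chr20:38130174-38130203, minus strand: agcctgctgagaGCCCCCAccttgatccca
POLR2E, 7mer-A1, chr19:1088635-1088664, minus strand: tgccagaatccgGCCCCCAcagctctcacg
APEX1, 6mer, chr14:20457532-20457561, plus strand: cctgggaaataaGCCCCCtcaactaccatt

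The complement of the siNT1 seed is CGACTA. Since siNT1 is the reference of every fold change, a gene with this word would be higher with siGGGGGC if siNT1 lowered it. The sites of 3 genes that rose, each with a log2 fold change above 1, are shown as examples. The word was also in the 3′ UTRs of SLC7A11 and AGO4, which rose, and of POLR2E and HMGA1, which fell.
SMIM13, chr6:11138219-11138248, plus strand: tggactctcaagCGACTAatggaatagtgt
OXSR1, chr3:38255238-38255267, plus strand: ggtctttctaaaCGACTAaaggatttgttg
POLE3, chr9:113408546-113408575, minus strand: agggattctgaaCGACTAaattagtcagtt

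The seed GGGGGC at positions 2 to 7 is also that of human microRNAs. Examples from the RefSeq collection (GRCh38.p14) are the 2 mature microRNAs below, shown because siGGGGGC shares their seed, with bases 2 to 8 in capitals. They are not a full count of the microRNAs with this seed.
hsa-miR-1237-5p: cGGGGGCGgggccgaagcgcg
hsa-miR-4488: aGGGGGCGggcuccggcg

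Library totals were 22351927 and 21063521 counts for siNT1 and 19781445 and 20509063 counts for siGGGGGC. The small RNA genes RN7SL2 and SNORD3A took 27.76% to 31.14% of these counts, and the 13 protein-coding genes of the mitochondrial genome were listed at 0. siNT1 replicate 1 stood apart from the other 3 libraries. Counts were found for 33365 genes in it and for 25238 to 25841 genes in the others, and 3931 genes were counted in it alone of the 10 libraries, against 162 to 317 genes for the others. These extra genes had a median of 1 count and at most 15, together 0.0267% of its total. The ovarian cancer antigen gene MUC16 had 26 counts in siNT1 replicate 1 and 0, 1 and 2 in the other libraries, so that low-count calls can rest on this library. With siNT1 replicate 1 left out, protein-coding genes called higher went from 217 to 180, of which 141 were the same genes, and those called lower from 251 to 179, of which 171 were the same. For lncRNAs the numbers were 24 and 11 called higher, with 9 shared, and 80 and 49 called lower, with 39 shared. The rules for calls are given in the next paragraphs. The wells of a group were not copies of each other. The chi-square between them was 2.29 per degree of freedom for siNT1 and 3.49 for siGGGGGC at 24 h. At 48 h it was 31.4 for siNT1, 42.5 for siGGCAGU and 11.2 for siGGGGGC. The p-values at 24 h draw on the spread of all of these wells.

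Markers matched a cell line of mesenchymal character. The intermediate filament gene VIM had 37329 and 37763 normalised counts with siNT1 and 30198 and 30313 with siGGGGGC. The simple-epithelium keratins KRT7, KRT8 and KRT18 lay between 3205 and 10351 in all 4 libraries, whereas the epithelial cadherin CDH1 lay between 1.19 and 2.89. PAX8, a transcription factor of Müllerian epithelium, had 478.5 and 494.9 normalised counts with siNT1 and 239.6 and 273.1 with siGGGGGC. The leukocyte markers PTPRC, CD3E and CD14 lay at 0 to 2.62. A normalised count is a count divided by the TMM-scaled library size and multiplied by the mean of that size over the 10 libraries, and it is not divided by gene length, so levels of different genes cannot be compared.

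Changes between siGGGGGC and siNT1 at 24 h were tested with the edgeR quasi-likelihood test. At an adjusted p below 0.05 (Benjamini-Hochberg), 1797 genes (10.6% of the genes tested) rose and 1406 (8.32%) fell, and "rose" and "fell" are used in this sense throughout. A gene was called when its log2 fold change was also beyond 1, which held for 262 genes (1.55%) in the higher and 367 (2.17%) in the lower direction. In each of the 629 called genes the 2 groups did not overlap. With 2 wells a group these rules nearly require that, so it is no separate support for the calls. The share of all genes tested without overlap is not given. Beyond a log2 fold change of 2 there were 72 falls and 22 rises. More of the calls were at low levels. Among genes with a mean normalised count below 100, 2.13% were called higher and 2.98% lower, and from 1000 upward the shares were 0.753% and 0.869%, or 26 and 30 genes. By gene type, 3.53% of 2267 lncRNA genes and 2.02% of 12430 protein-coding genes were called lower, while 1.06% and 1.75% were called higher. The median log2 fold change of all genes was 0.0035, so the level changes below are close to changes against the typical gene.

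**Figure D1:**
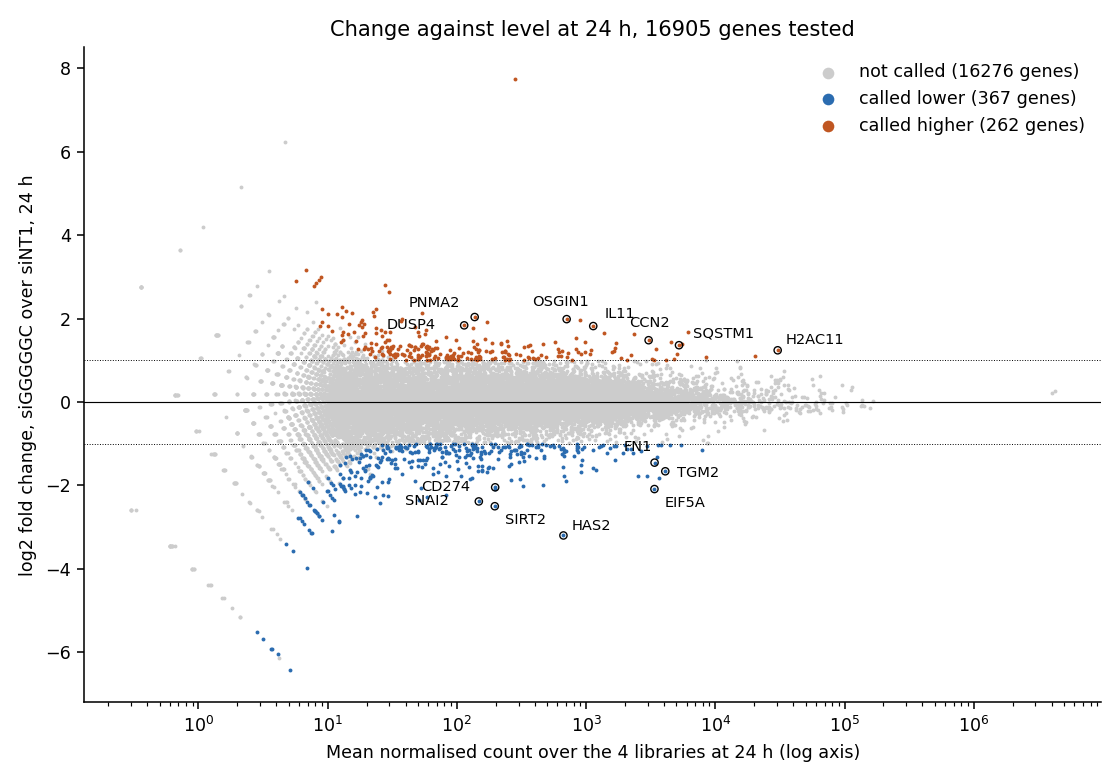
Log2 fold change of each of the 16905 genes (siGGGGGC over siNT1, 24 h) against the mean normalised count over the 4 libraries (log axis). Each point is a gene, blue for the 367 called lower, orange for the 262 called higher and grey for the rest, with dotted lines at -1 and 1. At high levels HAS2 (-3.20), EIF5A (-2.09) and TGM2 (-1.66) lie below the band of grey points and IL11 (1.82) and OSGIN1 (1.98) above it, and the widest fold changes are those of genes with few counts.

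The largest falls were taken among well expressed protein-coding genes, those with a mean normalised count of at least 1000. They included genes of translation, transcription, ribosome assembly and the extracellular matrix. EIF5A (ENSG00000132507), a translation factor that helps ribosomes through stalling peptide bonds, had 5415 and 5521 normalised counts with siNT1 and 1360 and 1211 with siGGGGGC. The log2 fold change of -2.09 had an SE of 0.14 (Benjamini-Hochberg adjusted p = 2.07e-07, quasi-likelihood test of edgeR). PES1, a factor for maturation of the large ribosomal subunit, went from 4535 and 4564 normalised counts to 1325 and 1333, a log2 fold change of -1.78. POLR2K and POLR2E, small subunits shared by the nuclear RNA polymerases, had log2 fold changes of -1.83 and -1.63. POLR2E was at 1749 and 1844 normalised counts with siNT1 and at 564.4 and 594.9 with siGGGGGC, well apart.

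RHOC, a small GTPase of cell migration, had a log2 fold change of -1.78 and TGM2, a transglutaminase that crosslinks proteins of the matrix, one of -1.66. Fibronectin, FN1, fell as evenly between wells as the others. Its normalised counts were 4958 and 4960 with siNT1 and 1787 and 1830 with siGGGGGC, a log2 fold change of -1.46 (SE 0.12, adjusted p = 1.36e-06, edgeR). The remaining falls of the 15 largest were in the DNA repair endonuclease APEX1 (-1.38), the chromatin protein HMGA1 (-1.32), the centromere protein CENPB (-1.23), the splicing regulator RBFOX2 (-1.14), the phosphatase inhibitor PPP1R14B (-1.13), the kinesin KIF1C (-1.13), SHISA5 (-1.10) and the methionine aminopeptidase METAP1 (-1.09). All of these are log2 fold changes. Of the 15, 10 are the genes that the study itself chose as targets from such libraries, with a median log2 fold change of -1.65, and that all 10 fell is therefore not independent evidence. The 5 control genes of the study, TPP2, UMPS, PPIL1, VAMP3 and RFC3, were chosen for the lack of a change, and their log2 fold changes were 0.0022 to 0.0028.

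In the range of 100 to 1000 normalised counts the falls were larger. HAS2, the main hyaluronan synthase of mesenchymal cells, had 1166 and 1241 normalised counts with siNT1 and 118.4 and 143 with siGGGGGC. The log2 fold change was -3.20 (SE 0.12, adjusted p = 1.01e-09, edgeR), the furthest from 0 among the protein-coding falls named here. The deacetylase SIRT2 went from 338.9 and 328.6 normalised counts to 52 and 65.8 (log2 fold change -2.50). SNAI2, a transcription factor that represses epithelial genes, went from 259 and 237 to 47.6 and 47.2 (-2.38). CD274, which encodes the immune checkpoint ligand PD-L1, had 291.2 and 345.7 normalised counts with siNT1 and 75.1 and 78.6 with siGGGGGC (-2.05). The wells of each group lay close together in all of these genes. EIF5AL1 (-2.10) is an intronless near-copy of EIF5A, so reads of one could have been counted for the other. IMPDH1, an enzyme of guanine nucleotide synthesis, fell by 2.02 and TXNIP, an arrestin-family regulator of glucose uptake, by 1.99 on the log2 scale.

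**Figure D2:**
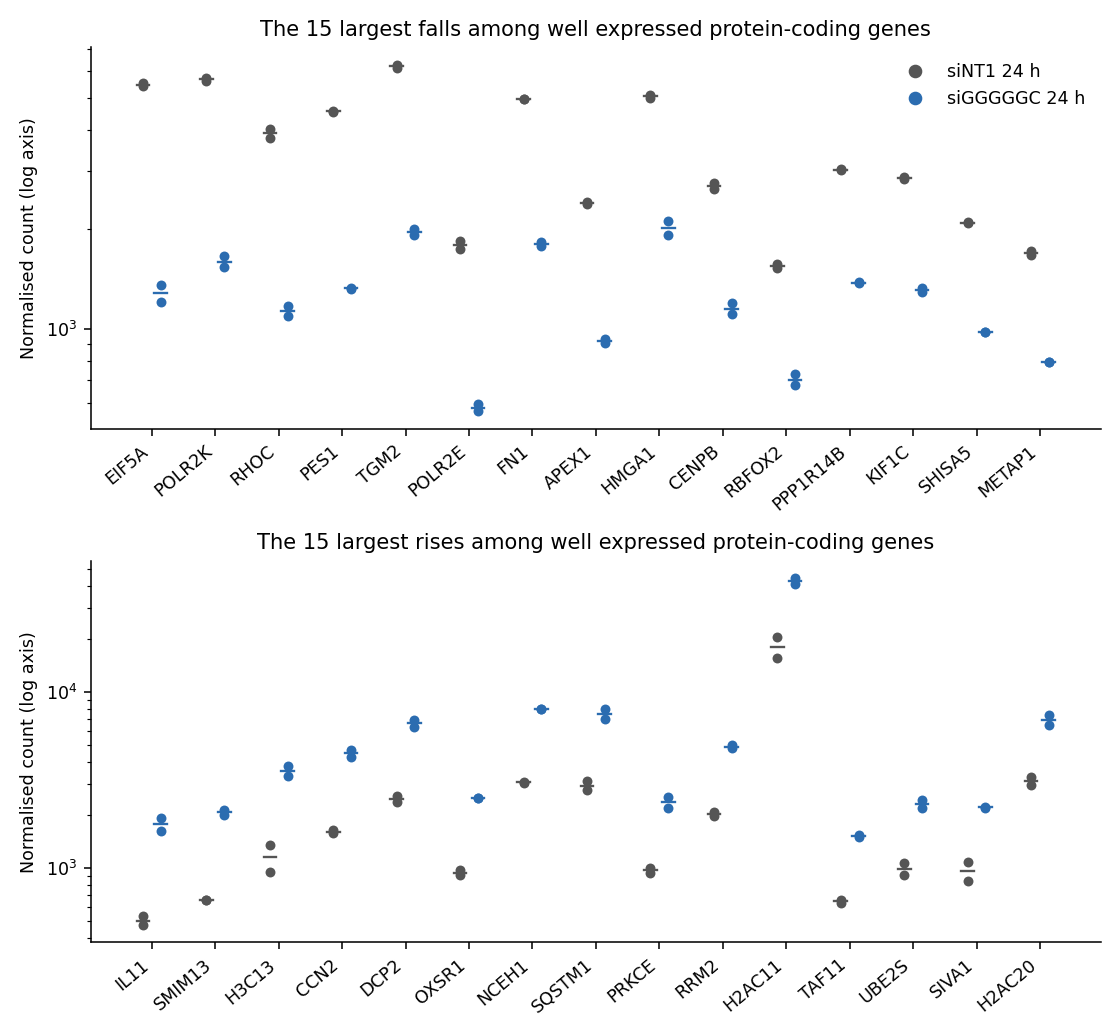
Normalised count (log axis) in each library at 24 h for the 15 largest falls (top) and the 15 largest rises (bottom) among protein-coding genes with a mean of at least 1000. Points are libraries, 2 for siNT1 (left of each pair) and 2 for siGGGGGC (right, blue), and short lines are group means. In all 30 genes the libraries of a group lie closer to each other than to those of the other group. The rule that picked these genes required that the 2 groups did not overlap.

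The 15 largest rises at this level came from other kinds of genes. IL11, a cytokine of the IL6 family, had 472.6 and 530.3 normalised counts with siNT1 and 1911 and 1624 with siGGGGGC. The log2 fold change was 1.82 (SE 0.12, adjusted p = 1.31e-07, edgeR). CCN2, a matricellular protein induced by TGF-beta and YAP, went from 1643 and 1570 to 4686 and 4276 normalised counts (1.48). DCP2, the catalytic subunit of the mRNA decapping enzyme, went from 2374 and 2560 to 6353 and 6961 (1.43). Both siGGGGGC wells were above both siNT1 wells in each of these genes, which the rule for naming genes required.

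SQSTM1, the autophagy receptor p62, went from 2763 and 3104 to 7048 and 8008 normalised counts (log2 fold change 1.36), and RRM2, the small subunit of ribonucleotide reductase, from 2078 and 1976 to 4967 and 4796 (1.27). The lipid hydrolase NCEH1 (1.39), the kinases OXSR1 (1.41) and PRKCE (1.28), the transcription factor subunit TAF11 (1.24), the ubiquitin-conjugating enzyme UBE2S (1.23), SIVA1 (1.19) and SMIM13 (1.65) rose by similar amounts on the log2 scale. The histone genes H3C13 (1.63), H2AC11 (1.24) and H2AC20 (1.15) completed the 15. For H3C13 the siNT1 wells differed more than in the other genes, at 952.3 and 1346 normalised counts against 3322 and 3789. From 100 to 1000 normalised counts the largest rises were in PNMA2 (2.04), the oxidative stress gene OSGIN1 (1.98), the ubiquitin-conjugating enzyme CDC34 (1.95), the bicarbonate transporter SLC4A8 (1.93) and the MAP kinase phosphatase DUSP4 (1.84). OSGIN1 was at 278 and 292 normalised counts with siNT1 and at 1153 and 1103 with siGGGGGC.

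The long noncoding RNA list, which consists largely of host genes of small nucleolar RNAs, moved in the lower direction. Of 21 tested, 12 fell and 0 rose, with a median log2 fold change of -0.53. With any 1 of the 4 libraries left out, 9 to 11 fell. SNHG7 went from 1655 and 1705 to 541.3 and 583.4 normalised counts (-1.58), SNHG12 from 1422 and 1254 to 487.9 and 453.3 (-1.51) and SNHG5 from 3207 and 3214 to 1444 and 1320 (-1.22). ZFAS1 (-0.82) and GAS5 (-0.53) also fell. Several of these host transcripts are known for a terminal oligopyrimidine start and for decay that depends on translation. The nuclear RNAs MALAT1 (0.46, adjusted p = 0.202) and NEAT1 (0.35, adjusted p = 0.0703) did not pass the edgeR test. Outside the list, lncRNA genes with the largest falls were ENSG00000261786 (-1.84), MIR99AHG (-1.77) and SNHG4 (-1.67), whose normalised counts were 1494 and 1291 with siNT1 and 480.7 and 393.2 with siGGGGGC. NRAV (1.15) and LINC00467 (0.69) rose. ENSG00000281383 (chromosome 21, 8254592 to 8255514) had 0 and 5.24 normalised counts with siNT1 and 679.9 and 444.7 with siGGGGGC. It passed the edgeR test with all libraries (adjusted p = 0.00729) but not without siNT1 replicate 1 (0.0862) or without siNT1 replicate 2 (0.0587), and no fold is given since the siNT1 wells were at or near 0.

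Most genes of mitosis and DNA replication had positive log2 fold changes, 31 of 33 and 38 of 42, while genes of G1 went both ways, with 14 of 26 positive. Of 33 genes of mitosis tested, 21 rose (63.6%, beside 10.6% of all genes) and 1, the kinesin gene CENPE (-0.39), fell, with a median log2 fold change of 0.37. Without siNT1 replicate 1 the median was 0.36. With any library left out fewer genes passed the test over all genes as well. Lower counts in such fits, here and in other lists, are therefore not particular to a list. The mitotic kinase PLK1 had 410.5 and 443.9 normalised counts with siNT1 and 655.4 and 647.8 with siGGGGGC (0.61). It and the spindle midzone protein PRC1 (0.79) were not past the test without siNT1 replicate 1 (adjusted p = 0.0617 and 0.0613, edgeR). The kinetochore protein SPC24 (0.78), the survivin gene BIRC5 (0.59) and cyclin B1, CCNB1 (0.38), rose. In bulk RNA, fewer or more cells that express a gene and less or more RNA per cell cannot be told apart.

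Of 42 genes of DNA replication, 15 rose and 0 fell, with a median log2 fold change of 0.22, and 7 to 10 rose with any 1 of the 4 libraries left out. POLE3, an accessory subunit of DNA polymerase epsilon, went from 2191 and 2257 to 4376 and 4619 normalised counts (1.02). RPA1, the large subunit of the single-strand binding protein, went from 416.5 and 326 to 877.7 and 840.8 (1.21), and did not pass the edgeR test without siNT1 replicate 2 (adjusted p = 0.0515). The licensing factors CDC6 (0.63) and MCM5 (0.51) rose as well. Of 26 genes of G1, 10 rose and 4 fell, and 6 to 8 rose and 0 to 2 fell with any 1 library left out. Cyclin E2, CCNE2, went from 563.3 and 636.3 to 1283 and 1443 normalised counts (1.19). The inhibitor of cyclin-dependent kinases CDKN1B rose (0.91) and CDKN1A, another of these inhibitors and a p53 target, fell (-0.35). In nucleotide synthesis, RRM2 (1.27) and thymidine kinase TK1 (0.64) rose while IMPDH1 (-2.02) fell, and 4 of 28 went each way, with 2 to 3 that rose and 2 that fell when 1 library was left out.

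Of 66 histone genes tested, 34 rose and 2 fell, with a median log2 fold change of 0.37. With any 1 library left out, 21 to 27 rose. H2AC11 had 15567 and 20581 normalised counts with siNT1 and 41080 and 44175 with siGGGGGC, and H2BC26 had 284 and 337.8 against 769.4 and 922.3 (1.45). The DNA damage variant H2AX rose (1.27). Histone genes are near-identical copies, so the count of a single one is uncertain. Most of their mRNAs lack a poly(A) tail and are seen here because the RNA was not selected for poly(A). The histone genes differed between the siNT1 wells by a median log2 difference of -0.115 (replicate 1 minus 2), further from 0 than for the lists of mitosis, DNA replication and G1.

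**Figure D3:**
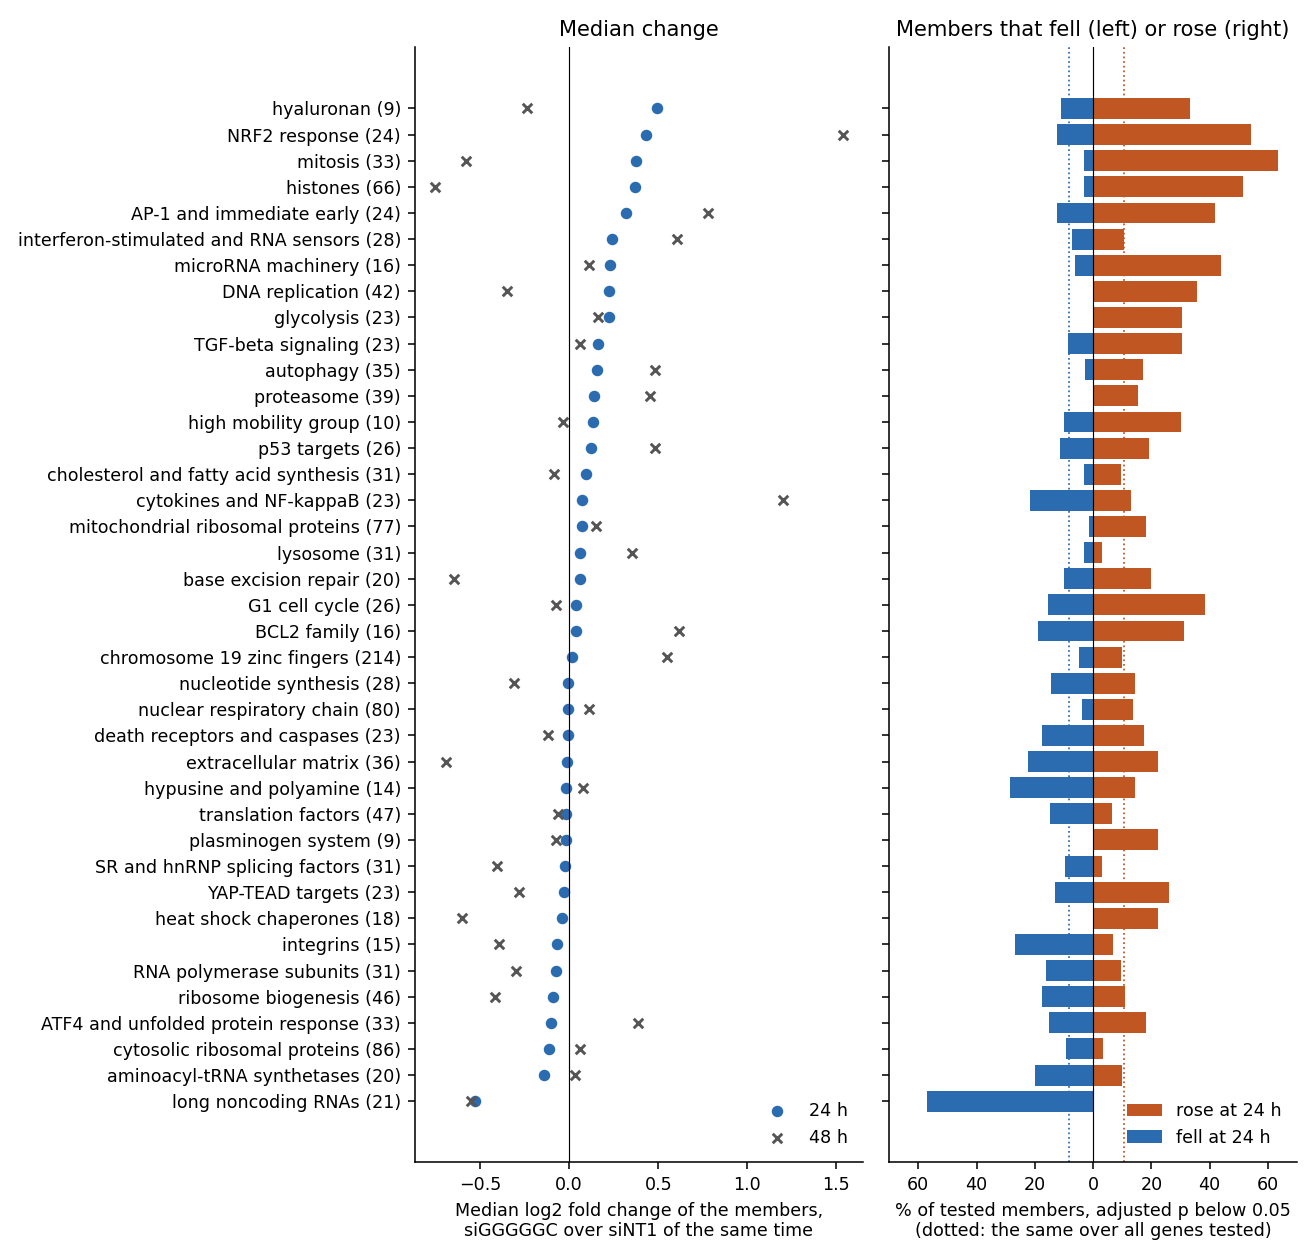
Pathway and family lists with at least 9 tested members (number in parentheses), without the genes chosen by the study and 1 list not reported here. Left, median log2 fold change of the members at 24 h (circles) and 48 h (crosses). Right, the share of tested members that fell (blue, to the left) or rose (orange, to the right) at 24 h, with dotted lines at 8.32% and 10.6%, the shares over all genes tested. Mitosis, NRF2 response and histones have the widest orange bars and the long noncoding RNAs the widest blue bar.

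NRF2 is the transcription factor that induces detoxifying and glutathione genes under oxidative stress. Of 24 genes of this list, 13 rose and 3 fell at 24 h, with a median log2 fold change of 0.43, and 9 to 10 rose with any 1 library left out. NQO1, a quinone reductase, went from 25014 and 25174 to 41571 and 42918 normalised counts (0.75). GCLM (0.79), which takes part in glutathione synthesis, the cystine transporter SLC7A11 (0.68) and thioredoxin reductase TXNRD1 (0.62) rose. FTH1, ferritin heavy chain, rose by 1.47, and its many processed pseudogenes make the count uncertain. Sulfiredoxin, SRXN1, was low, at 2.39 and 1.31 normalised counts against 10.1 and 21.4. The 3 that fell were the aldo-keto reductases AKR1C1 (-0.65), AKR1C2 (-1.91) and AKR1C3 (-0.66), and haem oxygenase HMOX1 was at -0.20 (adjusted p = 0.268, edgeR). AKR1C genes are close paralogs. Of 35 autophagy genes, SQSTM1 among them, 6 rose and 1 fell, and GABARAPL1 was at 0.88.

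Cytokines were split. IL11 rose, as given above, while the chemokine CXCL1 went from 997.6 and 983.3 to 363.8 and 313.2 normalised counts (-1.55), and CXCL2 (-1.04) and CXCL8 (-0.63) fell. Of 23 genes of this list, 3 rose and 5 fell, and 3 to 4 fell with 1 library left out. Among AP-1 and immediate early genes 10 of 24 rose and 3 fell. ATF3 (1.07), IER3 (1.22) and FOSL1 (0.86) rose, and the pluripotency factor KLF4 went from 236.3 and 208.2 to 65 and 77.2 normalised counts (-1.64). BIRC3, an inhibitor of apoptosis induced by NF-kappaB, had 250.6 and 261.9 normalised counts with siNT1 and 714.6 and 620.6 with siGGGGGC (1.38). Of 23 genes of TGF-beta signaling 7 rose, among them the inhibitor of differentiation ID3 (1.09) and SMAD3 (0.94), and 2 fell, against 4 to 6 and 1 with 1 library left out. Of 23 YAP-TEAD targets 6 rose and 3 fell, with CCN2 at 1.48 and the tissue factor gene F3 (-1.03) and the receptor kinase AXL (-1.02) in the other direction.

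The matrix and adhesion genes went both ways. Of 36 genes of the extracellular matrix 8 rose and 8 fell, and with any 1 library left out 3 to 4 rose and 5 to 6 fell. TGM2 and FN1 were the largest falls among those with a mean of at least 100, and the laminin chain LAMA5 (1.28) rose. Of 15 integrin genes 4 fell and 1 rose. ITGA6, a laminin receptor chain, went from 28437 and 29964 to 17902 and 18748 normalised counts (-0.67), the fibronectin receptor chain ITGA5 fell by 0.91 and ITGA2 by 0.90 on the log2 scale, and ITGB5 rose by 0.60. Of the 9 hyaluronan genes tested, HAS2 fell, and HMMR (0.59), CEMIP2 (0.49) and HAS3 (1.16) rose, the last at 27.4 and 18.3 normalised counts against 44.8 and 58.6. The hyaluronan receptor CD44 was at -0.02 (adjusted p = 0.937, edgeR).

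In the protein machines to which the most lowered genes belong, as over all genes, most members did not pass the test. Over all genes 10.6% rose and 8.32% fell. The shares that rose and fell were 9.68% and 16.1% for RNA polymerase subunits and 10.9% and 17.4% for ribosome biogenesis factors. They were 6.38% and 14.9% for translation factors, 3.49% and 9.3% for cytosolic ribosomal proteins and 10% and 20% for aminoacyl-tRNA synthetases. Of 31 RNA polymerase subunits 5 fell and 3 rose, and with any 1 library left out 2 to 3 fell and 0 to 3 rose. Besides POLR2K and POLR2E, POLR1G of RNA polymerase I was at -0.54, and it was not past the test without siNT1 replicate 2 (adjusted p = 0.0586, edgeR) or siGGGGGC replicate 2 (0.117). Of 46 ribosome biogenesis factors 8 fell and 5 rose, or 2 to 4 and 0 to 3 with 1 library left out. RRP1B, a nucleolar protein, had 1186 and 1099 normalised counts with siNT1 and 477.8 and 450.4 with siGGGGGC (-1.30). Of 47 translation factors 7 fell and 3 rose, with the inhibitory cap-binding partner EIF4EBP1 (-1.09) and the helicase EIF4A2 (-0.70) next to EIF5A, and with 1 library left out 3 fell and 0 to 3 rose. Of 86 cytosolic ribosomal protein genes 8 fell and 3 rose, led by RPL36A (-1.03) and by RPL39L (0.87) and RPS15 (0.86), all with pseudogene copies or paralogs, and 1 to 4 fell with 1 library left out. Of 20 aminoacyl-tRNA synthetases 4 fell, GARS1 (-0.49) the most, and 2 rose, or 1 to 3 and 0 with 1 library left out.

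The guide itself acts through the proteins of small RNA silencing. Of 16 of their genes tested, 7 rose and 1 fell, and 2 to 5 rose with any 1 library left out. AGO2, the Argonaute protein with slicer activity, went from 1135 and 1182 to 1839 and 1896 normalised counts (0.69). AGO4 (0.83) and the GW182 proteins TNRC6A (0.44) and TNRC6C (0.62) rose. DROSHA, the nuclear nuclease of microRNA processing, went from 390.2 and 416.4 to 235.3 and 253.1 (-0.72). DICER1 was at -0.06 (adjusted p = 0.707, edgeR). The splicing factor HNRNPDL went from 11648 and 11798 to 5943 and 5914 normalised counts (-0.98), while of 31 SR and hnRNP genes 3 fell and 1 rose, or 1 to 2 and 1 with 1 library left out.

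In metabolism, 7 of 23 glycolysis genes rose and 0 fell, 6 with any 1 library left out. PFKP, a phosphofructokinase, went from 3161 and 3145 to 6446 and 6419 normalised counts (1.03). The lactate exporter SLC16A3 (0.99) and the glucose transporter SLC2A1 (0.66) rose. Over all genes 10.6% rose and 8.32% fell. The shares were 30.4% and 0% for glycolysis, 18.2% and 1.3% for mitochondrial ribosomal proteins and 15.4% and 0% for the proteasome. Cholesterol and fatty acid synthesis was at 9.68% and 3.23%, neither above the share of all genes. Of 77 mitochondrial ribosomal protein genes 14 rose and 1 fell, a count that was 2 to 8 with any 1 library left out. Of 39 proteasome genes 6 rose and 0 fell, and 0 to 3 rose with 1 library left out. Of 31 genes of cholesterol and fatty acid synthesis 3 rose and 1 fell, and 1 to 2 rose with 1 library left out.

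In the stress pathways, as over all genes, most genes did not pass the test at 24 h. Over all genes 10.6% rose and 8.32% fell. The shares were 19.2% and 11.5% for p53 targets and 18.2% and 15.2% for ATF4 and unfolded protein response genes. Of 26 p53 targets 5 rose and 3 fell, with FDXR (0.68) and PMAIP1, the BH3-only protein NOXA (0.62), among the rises, and 2 to 3 rose and 0 fell with any 1 library left out. Of 33 genes of the ATF4 and unfolded protein response 6 rose and 5 fell, and 2 to 4 rose and 3 to 4 fell with 1 library left out. ATF4 itself went from 7806 and 8020 to 5448 and 4828 normalised counts (-0.62), and the chaperones HSP90B1 (-0.82) and HSPA5 (-0.45) of the endoplasmic reticulum fell. Of 28 interferon-stimulated genes and RNA sensors 3 rose and 2 fell, shares of 10.7% and 7.14% beside 10.6% and 8.32% of all genes, and 0 to 1 rose and 0 fell with 1 library left out. Of 214 zinc finger genes on chromosome 19, 21 rose (9.81%) and 10 fell (4.67%), or 5 to 12 and 3 to 5 with 1 library left out.

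Promoters of the mitosis, DNA replication, histone and NRF2 lists were read for short words. The windows are the RefSeq promoters (GRCh38.p14), 300 bases around the gene start, found for 11054 of the 16905 genes, and a word was counted on either strand. TTTGAA, the cell cycle genes homology region, was in 20 of 28 mitosis promoters (71.4%), in 0 of 36 DNA replication promoters, in 32.2% of 59 histone promoters, in 5.88% of 17 NRF2 response promoters and in 10.1% of all promoters. CCAAT was in 79.7% of the histone promoters, 71.4% of the mitosis promoters, 58.3% of the DNA replication promoters, 52.9% of the NRF2 response promoters and 36.8% of all. TGACNNNGC, the core of the antioxidant response element, was in 4 of 17 NRF2 response promoters (23.5%), in 6 of 28 mitosis promoters (21.4%), in 16.7% of the DNA replication and 8.47% of the histone promoters and in 15.3% of all. A match is a description of the letters in the window.

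The effect of siGGGGGC was then set beside that at 48 h, measured in other libraries with their own siNT1 wells. Genes called higher at 24 h had a median log2 fold change of 1.23 at 48 h, and 244 of 262 were above 0. Genes called lower had a median of -1.47, and 342 of 367 were below 0. The difference between the effects was tested as an interaction in the same edgeR fit, in which 2269 genes (13.4%) had a higher effect at 48 h and 2564 (15.2%) a lower one at an adjusted p below 0.05. With the same test, 197 genes rose at 24 h and fell at 48 h, and 62 went the opposite way.

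Most genes of mitosis and DNA replication and most histone genes had lower effects at 48 h. Of the 33 mitosis genes 2 rose and 23 fell at 48 h, with a median log2 fold change of -0.58 at that time. By the interaction test 27 had a lower effect than at 24 h, beside 15.2% of all genes. Counts of rises and falls at 48 h, here and in the next paragraph, are given without the share over all genes. These counts therefore cannot be read as particular to a list. The median log2 fold change of all genes at 48 h was -0.0114. PLK1 had 606.4 and 460.6 normalised counts with siNT1 and 324.2 and 314.8 with siGGGGGC at 48 h, so that its log2 fold change went from 0.61 to -0.74 (interaction adjusted p = 7.09e-05, edgeR). Of 42 DNA replication genes 26 fell at 48 h and 28 had a lower effect, and of 66 histone genes 40 fell and 44 had a lower effect. Of the 26 genes of G1, 12 rose and 11 fell at 48 h, and CCNE2 was at 1.07 and CDKN1B at 0.88. RRM2 was at 2461 and 2204 normalised counts with siNT1 and 2171 and 2290 with siGGGGGC at 48 h, and those values overlap. Its rise at 24 h was thus not seen at 48 h, where the log2 fold change was -0.06 (adjusted p = 0.625, edgeR). ID3 behaved alike, with 1.09 at 24 h and -0.04 at 48 h.

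The NRF2 list went further in the same direction, from a median of 0.43 to one of 1.54, and 21 of 24 genes had a higher effect at 48 h. SQSTM1 had 3619 and 3638 normalised counts with siNT1 and 54037 and 52852 with siGGGGGC at 48 h, a log2 fold change of 3.88 after 1.36 at 24 h. OSGIN1 went from 1.98 at 24 h to 5.32 at 48 h. AKR1C1 and AKR1C2, which fell at 24 h, were at 2.74 and 1.22 at 48 h. Of the 23 cytokine genes 20 rose at 48 h, and 14 had a higher effect than at 24 h, beside 13.4% of all genes. CXCL2 had 336.9 and 360.9 normalised counts with siNT1 and 537.6 and 538.5 with siGGGGGC there, and its log2 fold change went from -1.04 to 0.62. CXCL8 went from -0.63 to 3.77, ATF4 from -0.62 to 0.39 and the urokinase gene PLAU, which had risen by 0.65 at 24 h, to -0.97.

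Among the leading falls, TGM2 (-4.39 at 48 h), FN1 (-3.72), EIF5A (-3.48), HAS2 (-4.55) and AXL (-2.92) were lower still, each with an interaction adjusted p of 0.000107 or less in edgeR. RHOC was at -1.78 at both times. POLR2K was at -1.56 at 48 h (interaction adjusted p = 0.25). The control wells of these genes also differed between the times. FN1 in the siNT1 wells was at 4958 and 4960 normalised counts at 24 h and 20024 and 15152 at 48 h, so its larger fold change at 48 h goes with a higher control level. The siGGGGGC wells had 1787 and 1830 at 24 h and 1268 and 1402 at 48 h. HAS2 was at 118.4 and 143 normalised counts with siGGGGGC at 24 h and 120.7 and 107.7 at 48 h, while its siNT1 wells went from 1166 and 1241 to 2502 and 2829. The siNT1 wells of TGM2 had 11609 and 9730, those of EIF5A 8982 and 8753 and those of AXL 9633 and 8828 normalised counts at 48 h, all above their levels at 24 h.

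**Figure D4:**
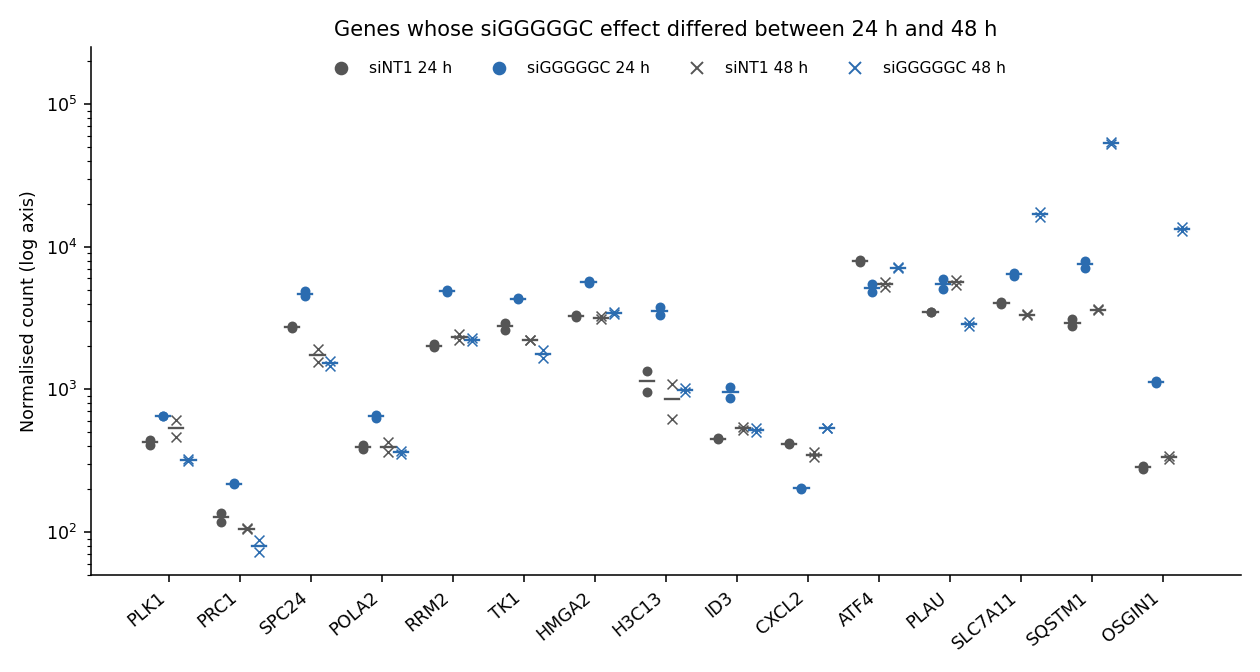
Normalised count (log axis) in the siNT1 and siGGGGGC libraries at 24 h (circles) and 48 h (crosses) of 15 genes, picked with their values in view, whose siGGGGGC effect differed between the times by the interaction test. Points are libraries and short lines group means of 2. PLK1 and PLAU are above siNT1 at 24 h and below it at 48 h, CXCL2 and ATF4 are the reverse, and SQSTM1 and OSGIN1 are further above siNT1 at 48 h.

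Whether the falls went with seed matches was examined in 12394 protein-coding genes with an annotated 3′ UTR, the longest of each gene. GCCCCC was found in 3894 (31.4%) of these. It was in 137 of the 249 genes called lower (55.0%) and in 75 of the 217 called higher (34.6%). Without siNT1 replicate 1, 62.0% of 179 genes called lower held it. An 8mer was in 20.9% of the genes called lower and in 6.24% of all. Of 24 genes called lower with a mean of at least 1000 normalised counts, 20 (83.3%) held GCCCCC, and of 25 called higher at this level 6 did (24.0%). The seed match was in 14 of the 15 leading falls, with 36 copies in all, and in 3 of the 15 leading rises, with 3 copies. EIF5A and HMGA1 had 5 copies each, SIRT2 had 6, and FN1 was the leading fall without one. AGO2, which rose (0.69), had 7. The 3′ UTRs of HAS2, SNAI2, CD274, TXNIP and KLF4 did not hold the word either. Of the genes called lower, 67 (26.9%) held it in neither the 3′ UTR nor the coding sequence, beside 33.2% of those called higher and 44.4% of all.

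The share of genes that fell went up with the number of matches, from 7.39% of genes with none to 10.9% with 1, 14.3% with 2, 16.7% with 3 and 20.1% with 4 or more. By the strongest site in the 3′ UTR, 10.3% fell with a 6mer, 11.1% with a 7mer-A1, 14.1% with a 7mer-m8 and 18.9% with an 8mer. Of the 164 genes with at least 4 matches and an 8mer among them, 23.8% fell and 11% were called lower. The shares that rose went the other way, from 14% of genes with no match to 8.02% with 4 or more. Below 100 normalised counts the shares that fell were close, 6.14% with a match and 4.88% without, and from 100 to 1000 they were 16.7% and 8.18%. Other words went with more falls too. With ACTGCC, the match of siGGCAGU, which was not transfected at 24 h, 10.9% of genes fell, against 8.27% without it. For TAAACC, the match of the sense strand that both duplexes share, the shares were 11.6% and 8.09%. For CGACTA they were 8.85% and 9.23%. Genes that fell had a median 3′ UTR length of 1970 bases, against 1518 for all. These are descriptions across genes, which share libraries and are not replicates.

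The typical gene with a match hardly moved. Its median log2 fold change was 0.0127, against 0.0404 for genes without a match, or -0.0276 between them. Replicates 1 and 2 of a 24 h group differed in the same measure by up to 0.0344, so the shift was no larger than that between replicates. For genes with an 8mer the shift was -0.1002, beyond the replicate shift of 0.0349, and for 4 or more matches it was -0.1116 beside 0.0863. Base composition moved with the fold change. The median of all genes went from -0.0425 in the lowest of 5 equal bins of 3′ UTR GC content to 0.1577 in the highest, and GCCCCC was in 6.05% of the first and 60% of the last. Between the siGGGGGC wells the same medians went from -0.0441 to 0.0518, and between the siNT1 wells they stayed between -0.0302 and -0.0153. Within the 5 GC bins the shift lay between -0.0685 and -0.1143, with a mean over strata of -0.0972. The shift between replicates was not computed within these bins. Without bins it reached 0.103 over all groups, those at 48 h among them. Within 5 bins of 3′ UTR length the shift had a mean of 0.0017, over bins that ran from 0.0739 for the shortest to -0.0452 for the longest. For matches in the coding sequence the shift was 0.0184, and -0.0609 within bins of coding GC content.

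**Figure D5:**
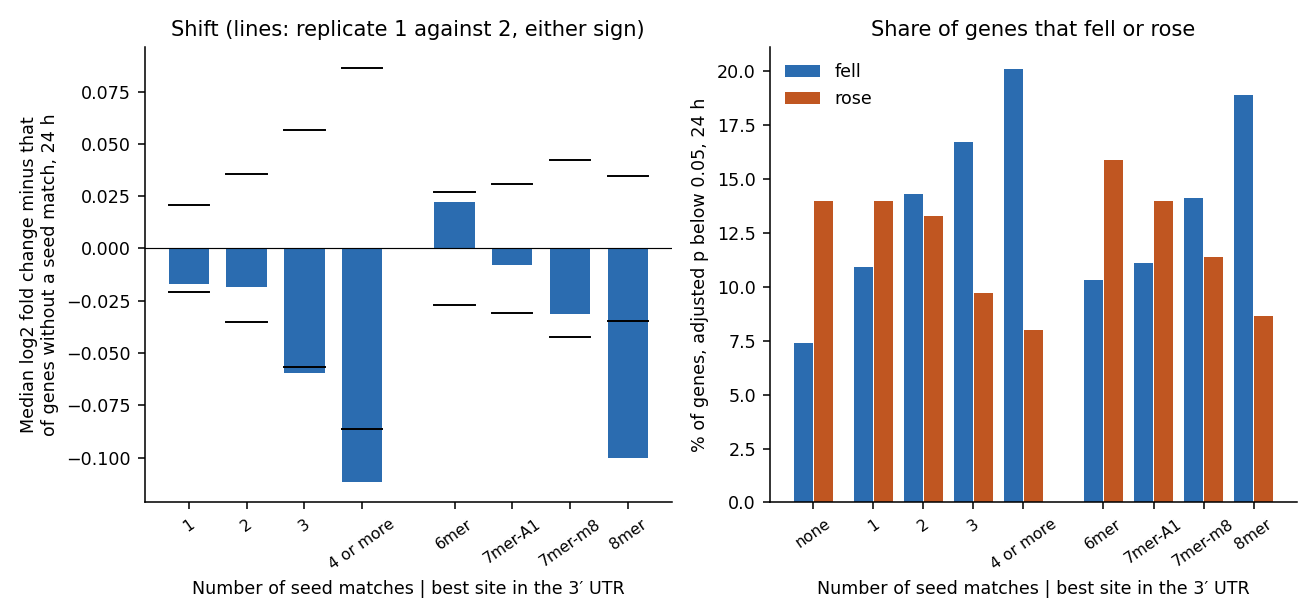
Left, median log2 fold change at 24 h of genes with 1 to 4 or more seed matches, or by strongest site, minus that of the 8500 genes without a match. Black lines mark the largest shift between replicates of a 24 h group, drawn on both sides of 0. Right, the share of these genes that fell (blue) or rose (orange). The share that fell is 7.39% without a match, 20.1% with 4 or more and 18.9% with an 8mer.

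All words of 6 bases were compared in the same way. On the plain shift GCCCCC ranked 2052 of 4096 among the most lowered, and within GC bins it ranked 2 of the 4005 words with enough genes, behind TATCGC. Within GC bins the match of siNT1, CGACTA, was the most raised of the 4005 words, with a shift of 0.0797. On the plain shift, 0.0680, it ranked 54 of 4096 among the most raised. Of the 384 genes with CGACTA in the 3′ UTR 18% rose, against 13.5% of the other genes, and 3.91% against 1.68% were called higher. It is in 2 of the 15 leading rises (SMIM13 and OXSR1) and in 2 of the 15 leading falls (POLR2E and HMGA1). The shift of genes with CGACTA in the coding sequence was 0.0673. Since both groups received a duplex, higher with siGGGGGC and lower with siNT1 cannot be told apart in these libraries.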

How the data were processed

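Total RNA of HeyA8 cells, freed of ribosomal RNA, was sequenced from both ends of each fragment. Reads were trimmed, aligned to hg38 and counted over the exons of Ensembl genes by the authors. The submitters' processing notes name TopHat, Bowtie2, HTSeq and DESeq2, and the strand setting is not given in the sources used here. The deposited files used here hold raw counts per gene, 1 file for each of 10 libraries, with no normalization. A further 4 deposited tables hold the authors' fold changes and p-values and were not used. Per-sample columns left unused numbered 0.

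Differences in counts were tested with edgeR 4.0.16 (R 4.3.3, glmQLFTest) in a fit of all 10 libraries with 5 groups, with TMM scaling, filterByExpr and Benjamini-Hochberg adjustment over 16905 genes, which left 5 residual degrees of freedom. The fit was tested on simulated data. DESeq2 1.42.0 was an alternative. Depth ran from 19781445 to 22351927 counts at 24 h, and with 2 wells a group only differences beyond the spread of wells are shown. Gene types, coordinates and 3′ UTRs are from GENCODE release 44, which holds 16807 of the genes tested.

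Genes were named by a rule. It takes the targets and controls of the study, the 15 largest falls and rises among protein-coding genes with a mean of at least 1000 and the 5 from 100 to 1000, the 3 largest lncRNA changes each way, and up to 3 genes a list or a member whose level is needed. The leading genes and lncRNAs also needed an adjusted p below 0.05 (edgeR) and both siGGGGGC libraries beyond both siNT1 libraries. Members and lists were chosen with earlier results of these data known. Some genes and 1 gene list are not reported here.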

Additional observations from a re-analysis of the deposited data

Results flagged for a closer look

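These results were flagged because the siGGGGGC effect differed between 48 h and 24 h in the interaction test of edgeR (adjusted p below 0.05 and beyond 1 on the log2 scale). Each value is the log2 fold change at 48 h minus that at 24 h, each against siNT1 wells of its own time. Effects that were lower at 48 h were those of the matrix and surface genes TGM2 (-2.73), FN1 (-2.26), AXL (-1.90), PLAU (-1.61), ITGA6 (-1.46) and HAS2 (-1.34). The same held for EIF5A (-1.39) and its near-copy EIF5AL1 (-1.24), for APEX1 (-1.21), CENPB (-1.05), POLR1G (-1.33), DROSHA (-1.14), TXNIP (-1.63) and ID3 (-1.13). In the cell cycle the differences were -1.34 for PLK1, -1.33 for RRM2, -1.18 for PRC1, -1.07 for RPA1 and -1.41 for the histone gene H3C13. The chaperone genes HSPA1A (-1.71) and DNAJB1 (-1.10) also had lower effects at 48 h, whereas DNAJB4 (1.65) had a higher one.

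Effects that were higher at 48 h were those of OSGIN1 (3.34), SQSTM1 (2.52), GABARAPL1 (2.83) and SLC7A11 (1.65). They also included IER3 (1.78), PMAIP1 (1.76), CXCL2 (1.66), KLF4 (1.35), BIRC3 (1.14), ISG15 (1.18) and ATF4 (1.01), the lncRNA gene LINC00467 (1.28) and the histone gene H2AC25 (1.08). For KLF4, CXCL2 and ATF4 the effect at 24 h was below 0.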

How the results depend on the processing

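The numbers of calls depended on the processing. Genes called at 24 h, 629 as reported, were 393 with a mean count of at least 50 and 42 by the glmTreat test against a fold change of 2, and 451 to 546 with any 1 library left out. Those called higher were 168 with a mean count of at least 50 and 201 to 233 with a library left out. Those called lower were 225 with a mean count of at least 50, 241 by DESeq2 and 243 to 313 with a library left out. At an adjusted p below 0.05 there were 5105 genes when the 4 libraries were fitted alone and 1471 to 1743 with any 1 of them left out. The genes whose effect differed between the times were 1598 to 1976 with a library left out. With upper quartile scaling the median of all genes was -0.0355 and 36% of the calls were higher, against 41.7% as reported. The shift of genes with GCCCCC in the 3′ UTR was -0.0972 within GC bins, reversed to 0.0184 for the coding sequence (-0.0609 within GC bins) and to a mean of 0.0017 within length bins of both signs, and lay between -0.0471 and -0.0143 with a library left out. The cause of these moves was not tested.

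Replicate numbers did not pair the wells, since the deviations of same-numbered 24 h wells correlated at 0.0397. A fit with the replicate number as a block gave 593 called genes, 252 higher and 341 lower, with 2849 at an adjusted p below 0.05, 1836 for the difference between times and a shift of -0.0283. Among the 4 named genes that no longer passed the test in it were ISG15, IFI44 and PLAUR. Of 1740 values of the 145 named genes under the alternatives, 1661 kept their direction and their side of the threshold, 79 in 29 genes kept the direction and lost the threshold, and 0 reversed.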

Other observations

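Further gene groups were counted at 24 h, where 10.6% of all genes rose and 8.32% fell. The shares that rose and fell were 20% and 10% in base excision repair and 30% and 10% in the high mobility group. They were 31.2% and 18.8% in the BCL2 family, 14.3% and 28.6% in hypusine and polyamine metabolism and 17.4% each in death receptors and caspases. Heat shock chaperones were at 22.2% and 0%, the plasminogen system at 22.2% and 0% and lysosomal genes at 3.23% each. Of 127 genes of small nucleolar RNAs tested, 7 (5.51%) were called lower and 0 higher, while many of these RNAs are shorter than the fragments that the libraries keep. Of 80 nuclear genes of the respiratory chain 11 rose (13.8%, beside 10.6% of all genes) and 3 fell (3.75%, beside 8.32%), or 3 to 9 and 0 to 1 with any 1 library left out, with COX5B (1.01), a subunit of cytochrome c oxidase, the furthest among those of at least 100 normalised counts. Of 20 genes of base excision repair 4 rose and 2 fell, or 1 to 3 and 1 with 1 library left out, among them FEN1 (0.44) and APEX1 (-1.38). Of 10 high mobility group genes 3 rose and 1 fell, or 1 and 1 with 1 library left out, and HMGA2 went up (3204 and 3311 to 5754 and 5607 normalised counts, a log2 fold change of 0.80) where its relative HMGA1 fell (-1.32).

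Of 16 genes of the BCL2 family 5 rose and 3 fell, or 3 to 5 and 0 to 1 with 1 library left out, with the effector-activating BID at 0.59 and the survival gene BCL2L2 at -0.76. Of 23 genes of death receptors and caspases 4 went each way, but 1 rose and 0 to 1 fell with any 1 library left out. Of 18 heat shock chaperones 4 rose and 0 fell, and 2 to 3 rose with 1 library left out. Of 14 genes of hypusine and polyamine metabolism 2 rose and 4 fell, or 1 to 2 each with 1 library left out. Of 31 lysosomal genes 1 went each way, or 1 to 2 each with 1 library left out, and of 6 of the arrestin family 1 went each way. Of 9 genes of the plasminogen system 2 rose and 0 fell, and of 4 structural noncoding RNAs 1 rose, counts that were 1 and 0 for the rises with 1 library left out. The 3963 genes with TAAACC in the 3′ UTR, the match of the sense strand that both duplexes share, had a median log2 fold change of -0.0043, and the other 8431 genes one of 0.0487.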
